A study of Mus musculus with 416 samples.

Results

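The regions described here are 5 intervals of the mouse genome (build GRCm38) known for their clusters of KRAB zinc finger genes: chromosome 7 from 41.5 to 44 Mb, chromosome 13 from 65 to 68 Mb, chromosome 17 from 20 to 23.5 Mb, chromosome 2 from 175 to 178 Mb and chromosome 4 from 145 to 147.5 Mb. Their members were chosen by position alone, as the 50-kb bins inside these intervals that had a replication state in at least 10 cells of each of the 6 groups. This gave 133 of the 290 bins in the intervals, out of 46015 bins used genome-wide. Chromosome 7 contributed 35 of 50 bins, chromosome 13 26 of 60, chromosome 17 58 of 70 and chromosome 4 14 of 50. Chromosome 2 contributed 0 of 60, so its cluster could not be described at all.

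The states came from whole-genome amplified DNA of single blastomeres of embryos of the genotype (C57BL/6J xCBA) x DBA/2J. As zygotes, between 17 and 18 hours after hCG, all had received either 20 µM of a control siRNA (siCont) or 20 µM of an siRNA against Rif1 (siRif1), and were grown on to the 4-cell, 8-cell or morula stage and collected at several times through S phase. The tables used held 49 siCont and 51 siRif1 cells at the 4-cell stage, 60 and 50 at the 8-cell stage, and 44 and 45 at the morula stage, each with a state at 88.1 to 94.1% of 49264 autosomal bins. No embryo, litter or batch is named for a cell, so each group is 1 sample, no test over cells is given, and differences are described by their size. One siRNA was used per arm, and the amount of Rif1 left in the embryos is not part of these DNA data.

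KRAB zinc finger proteins are DNA-binding repressors, and many of them recognise retrotransposon sequences. Their KRAB domain recruits the scaffold Trim28, which brings in the histone H3 lysine 9 methyltransferase Setdb1 and HP1 proteins, and this pathway silences transposable elements in early embryos. The genes arose by repeated local duplication and lie in tandem arrays, often beside arrays of vomeronasal receptor genes. Rif1 is a chromatin protein that brings protein phosphatase 1 to late-replicating DNA and delays the firing of origins there.

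The label was checked against the gene annotation, since membership used position only. Zinc finger genes were recognised by symbol, because no protein sequences were at hand, so the KRAB domain itself was not checked. The 5 intervals held 75 such genes, of which 52 had their midpoint in a used bin: 6 of 10 on chromosome 7, 24 of 25 on chromosome 13, 20 of 21 on chromosome 17, 2 of 12 on chromosome 4 and 0 of 7 on chromosome 2. Rex2 and Zfp600, which lie in the chromosome 4 array, were among the 10 unmeasured genes there. Over all protein-coding genes of the autosomes, 93.9% were measured, against 138 of 210 in the intervals. Of the 133 bins, 42 held the midpoint of a zinc finger gene, 27 that of a vomeronasal or formyl peptide receptor gene but of no zinc finger gene, 27 that of other genes only and 37 none. The measured bins therefore held most genes with a zinc finger symbol on chromosomes 13 and 17. They covered the edges of the array on chromosome 7, and hardly that on chromosome 4. On chromosome 13, however, only 26 of 60 bins and 13 of 26 genes with other symbols were measured, so much of that interval was not described.

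The promoters of these genes differ from each other in base composition, and 5 are shown because the results below turn on the bins that hold them. Each line gives the 250 bases before the transcription start, 5′ to 3′ in the direction of the gene, from RefSeq on GRCm38.p6, with every CG dinucleotide in capitals. Zfp658 (chr7:43562120-43562369, plus strand) and Zfp819 (chr7:43606919-43607168, plus strand) lie in the chromosome 7 bins with the largest delay. Zfp708 (chr13:67097977-67098226, minus strand) stands for the chromosome 13 array, Zfp947 (chr17:22165978-22166227, minus strand) for the latest bins of chromosome 17, and Vmn2r59 (chr7:42058982-42059231, minus strand) for the neighbouring receptor genes.
Zfp658: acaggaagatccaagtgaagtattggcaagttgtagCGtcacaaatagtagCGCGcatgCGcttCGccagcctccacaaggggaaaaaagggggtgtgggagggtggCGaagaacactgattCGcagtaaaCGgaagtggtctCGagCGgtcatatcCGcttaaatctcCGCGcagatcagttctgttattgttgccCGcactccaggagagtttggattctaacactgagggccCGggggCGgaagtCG
Zfp819: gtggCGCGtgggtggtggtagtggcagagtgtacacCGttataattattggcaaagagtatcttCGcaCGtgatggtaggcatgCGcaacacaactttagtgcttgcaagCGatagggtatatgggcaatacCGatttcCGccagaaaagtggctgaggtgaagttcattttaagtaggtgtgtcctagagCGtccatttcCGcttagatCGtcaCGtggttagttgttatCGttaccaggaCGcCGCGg
Zfp708: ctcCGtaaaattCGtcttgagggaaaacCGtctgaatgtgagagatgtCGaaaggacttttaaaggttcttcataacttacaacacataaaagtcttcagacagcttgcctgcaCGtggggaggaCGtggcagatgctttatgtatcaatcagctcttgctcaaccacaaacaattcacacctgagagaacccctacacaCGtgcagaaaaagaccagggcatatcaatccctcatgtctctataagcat
Zfp947: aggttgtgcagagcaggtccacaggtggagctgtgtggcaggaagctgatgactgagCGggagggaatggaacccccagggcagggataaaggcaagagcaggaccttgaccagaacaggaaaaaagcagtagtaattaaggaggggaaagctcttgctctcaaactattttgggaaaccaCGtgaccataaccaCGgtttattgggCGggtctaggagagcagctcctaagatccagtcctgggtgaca
Vmn2r59: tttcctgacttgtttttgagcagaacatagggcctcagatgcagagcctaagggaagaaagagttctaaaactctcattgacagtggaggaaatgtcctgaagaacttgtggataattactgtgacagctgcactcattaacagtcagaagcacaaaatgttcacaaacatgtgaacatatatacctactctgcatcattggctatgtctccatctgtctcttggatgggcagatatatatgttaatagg

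Zfp658 and Zfp819 each had 17 CG dinucleotides in this window, Zfp708 had 7, Zfp947 had 4 and Vmn2r59 had 0. Promoters were found for 65 of the 75 zinc finger genes, with a median of 6 CG (range 1 to 17), and for 37 of the 39 receptor genes, with a median of 1 (range 0 to 3). At least 5 CG stood in 66.2% of the zinc finger promoters, in 0% of the receptor promoters and in 66.9% of the 16457 promoters of protein-coding genes in the table. The letters CCGGAA, the core of sites bound by many ETS factors, stood on either strand in 41.5% of the zinc finger promoters, in 0% of the receptor promoters and in 15.5% of all. Every CCGGAA contains a CG, so these counts overlap. The letters CCAAT stood in 55.4, 51.4 and 36.2% and TATAAA in 1.54, 24.3 and 12.5%, in the same order. By CG content the zinc finger promoters thus varied widely and held 5 or more CG about as often as promoters in general, whereas no receptor promoter did. CCAAT was about as frequent in both kinds, and no test was made of these shares.

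In each cell a bin is either replicated or not, and the replicated share is the percent of the cells with a state there that had replicated it. Because cells of the 6 groups had gone unequally far through S phase, shares were also centred on the mean over all used bins of the group (46.5 and 50.5% for siCont and siRif1 at the 4-cell stage, 49.2 and 43.02% at the 8-cell stage, 49.4 and 49.98% at the morula stage). The shift is the centred share in siRif1 minus that in siCont, in percentage points. A bin with a negative shift is called later in siRif1 and one with a positive shift earlier. The shortest run of 1 state inside a chromosome was 5 bins in all 6 groups, so neighbouring bins are not independent and finer structure cannot be read. A whole chromosome lacked a state in a few cells: chromosome 7 in 1 siCont 8-cell and 2 siRif1 morula cells, and chromosome 17 in 1 siRif1 4-cell cell.

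**Figure D1:**
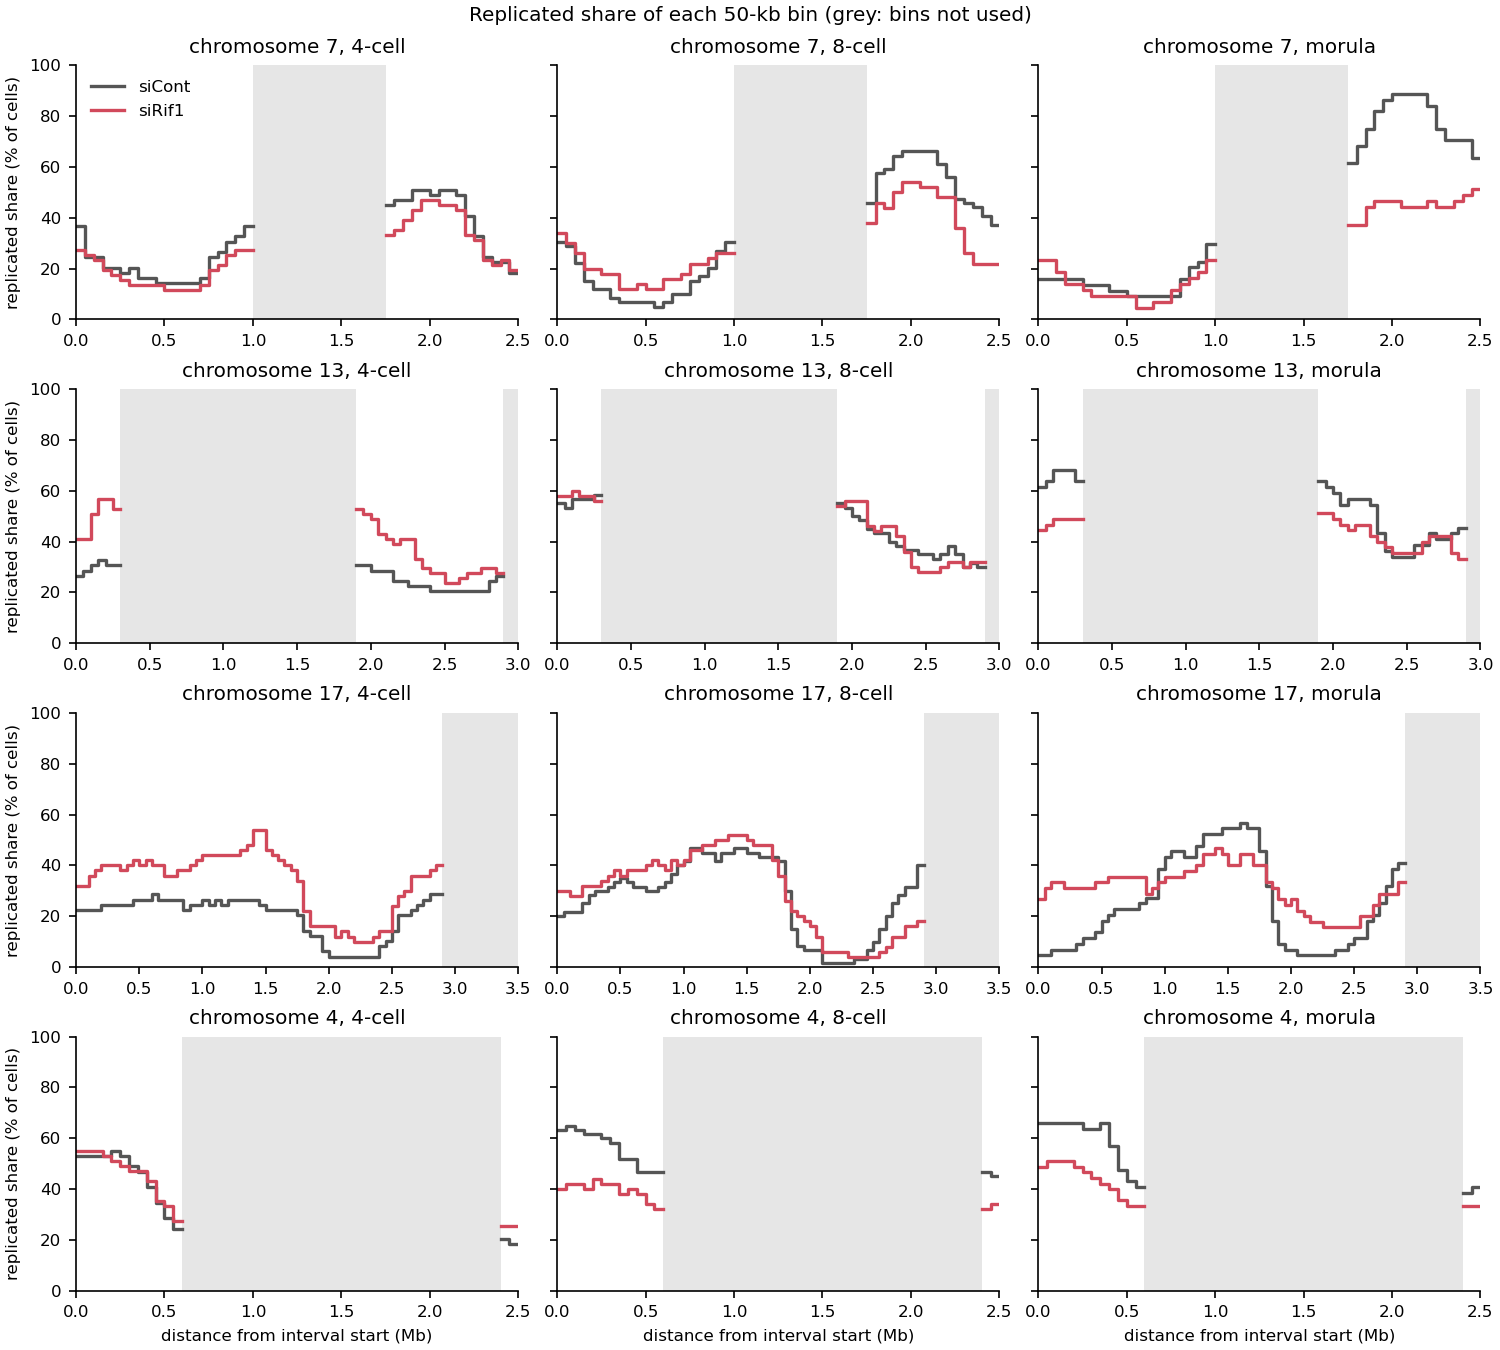
Replicated share (% of measured cells) of each 50-kb bin against the distance from the start of the interval in Mb, for the 4 clusters with used bins (from top: chromosomes 7, 13, 17 and 4) and the 3 stages; grey areas are bins not used. The siCont line at the morula stage peaks at 88.6% on chromosome 7 and lies at 4.55% at both late places of chromosome 17, whereas no siRif1 morula bin exceeds 51.2%.

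In control embryos most cluster bins were very late at the 4-cell stage, other than most on chromosome 4 and some on chromosome 7. The bins of control embryos differed more from each other at the later stages. Ranked among all used bins, the median cluster bin stood at percentile 4.05 at the 4-cell stage, 28.5 at the 8-cell stage and 36.1 at the morula stage, where 0 is the latest. In siRif1 cells the same medians were 15.97, 29.6 and 24.5. In siCont 4-cell cells the mean rank was 43.3 on chromosome 4 and 39.8 in the chromosome 7 bins from 43.25 to 44 Mb. It was 5.97 on chromosome 13 and 3.41 on chromosome 17. Within chromosome 4 it was 50.3 in the 12 bins from 145 to 145.6 Mb, but 1.55 in the 2 bins from 147.4 to 147.5 Mb. The spread between cluster bins (SD of the share) was 11.9, 18.1 and 24.6 points over the 3 stages in siCont cells and 12.9, 15.1 and 12.6 points in siRif1 cells. Over all used bins the SD was 13.7, 19.8 and 25.8 points in siCont and 14.02, 14.7 and 17.3 points in siRif1 cells. The smaller spread among siRif1 morula cells was thus also seen over all used bins.

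The measured bins formed 7 unbroken stretches. On chromosome 7, 20 bins from 41.5 to 42.5 Mb hold the vomeronasal receptor genes Vmn2r58 to Vmn2r61 between Zfp788 and Zfp141, and 15 bins from 43.25 to 44 Mb hold Zfp715, Zfp658, Zfp719 and Zfp819 with Siglec genes, which encode sialic acid receptors of leukocytes, and kallikrein protease genes. They are called the Vmn2r58 stretch and the Zfp658 stretch. On chromosome 13, 6 bins from 65 to 65.3 Mb end at Zfp369, and 20 bins from 66.9 to 67.9 Mb hold the array from Zfp712 and Zfp708 to Zfp273, which includes Rsl1 and Rslcan18, KRAB zinc finger genes of sex-dependent liver expression whose symbols put them among the other genes here. The 58 bins of chromosome 17 run from 20 to 22.9 Mb without a break. On chromosome 4, 12 bins from 145 to 145.6 Mb hold mainly Vps13d, a lipid transfer protein gene, and the tumour necrosis factor receptor genes Tnfrsf1b and Tnfrsf8, with Zfp990 at the end, and 2 bins from 147.4 to 147.5 Mb hold Zfp982.

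The chromosome 17 stretch was described in 4 sections, drawn after the profiles had been seen. From the centromeric side these were 19 bins of receptor genes (Vmn2r104 to Vmn1r232), 17 bins from Ppp2r1a, a protein phosphatase 2A subunit gene, and Zfp160 to Zfp229, 14 bins from Zfp820 to Zfp946, and 8 bins from Vmn2r111 to Zfp945. The first section holds receptor genes alone, and the middle ones hold 19 of the 20 measured zinc finger genes.

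Between the 4-cell and the morula stage of control embryos, the parts of one cluster went opposite ways. The mean share of the Zfp658 stretch was 40.1, 54.9 and 77.4% at the 3 stages, a centred increase of 34.4 points from the 4-cell to the morula stage with all 15 bins higher. That of the Zfp369 stretch was 29.9, 56.1 and 65.5%, and that of the Ppp2r1a to Zfp229 section 24.5, 44.2 and 49.3%, with centred increases of 32.8 and 21.99 points. The Vmn2r58 stretch, at 21.8, 14.9 and 14.3%, and the Vmn2r104 to Vmn1r232 section, at 24.9, 29.3 and 15.3%, were lower at the morula stage by 10.4 and 12.5 centred points. The Zfp820 to Zfp946 section was replicated in the fewest cells at each of the 3 stages, with 6.85, 6.79 and 8.77%.

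In siRif1 embryos these stage differences were smaller in most stretches. The same centred differences from the 4-cell to the morula stage were 9.86 points for the Zfp658 stretch, -1.74 for the Zfp369 stretch, -3.49 for the Ppp2r1a to Zfp229 section, -4.94 for the Vmn2r58 stretch and -5.20 for the Vmn2r104 to Vmn1r232 section. The Zfp820 to Zfp946 section went the other way, with 7.89 points in siRif1 and -0.932 in siCont cells. Over the 133 bins the median absolute difference was 13.8 points in siCont and 5.97 in siRif1 cells, beside 14.4 and 8.28 points over all used bins. The small stage difference in siRif1 cells was thus also seen across the genome.

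The shifts of the cluster bins varied most at the morula stage (SD over bins 15.7 points, against 9.36 at the 4-cell and 9.27 at the 8-cell stage). There, 84 of the 133 cluster bins were later in siRif1 cells (50.9% of all used bins were) and 49 were later by at least 10 points (24.9% of all). In the opposite direction, 26 were earlier by at least 10 points (24.8% of all). Past 30 points, 10 bins were later (0.461% of all) and 0 earlier (0.608% of all), and all 10 lay in the Zfp658 stretch. The median shift of the cluster bins was -5.03 points, beside -0.738 over all used bins. Their mean shift was -4.89, and bins of the same timing classes averaged 7.40.

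Within the Zfp658 stretch, every bin was later at the morula stage, with a mean shift of -33.2 points (range -45.0 to -13.1). Bins that the control cells of the other 2 stages put in the same of 5 timing classes had a mean shift of -0.861. In the bin of Zfp658, 39 of 44 siCont and 19 of 43 siRif1 morula cells were replicated, after 39 of 59 and 26 of 50 at the 8-cell stage and 25 of 49 and 23 of 51 at the 4-cell stage. The bin of Zfp819 had the same counts. Zfp715, at the centromeric edge, had been copied in 30 of 44 siCont morula cells and in 16 of 43 siRif1 morula cells, a shift of -31.6 points. The delay was largest at the zinc finger and Siglec genes and narrowed to -13.1 points across the kallikrein genes at the other edge.

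The stretch could be followed cell by cell. Counting a cell as having replicated a stretch when more than 50% of its measured bins were replicated, this held for 36 of 44 siCont morula cells (81.8%, exact 95% interval 67.3 to 91.8) and 19 of 43 siRif1 cells (44.2%, 29.1 to 60.1). These intervals, which do not overlap, cover counting error only. Among cells with 33 to 67% of the bins outside the clusters replicated, the counts were 28 of 34 siCont and 13 of 29 siRif1 cells, and among cells under 33% they were 4 of 6 and 1 of 8. Beyond 67% nearly all had replicated it, with 4 of 4 and 5 of 6. The exact intervals did not overlap in the middle class (65.5 to 93.2% in siCont and 26.4 to 64.3% in siRif1) but did in the class under 33% (22.3 to 95.7 and 0.316 to 52.7%). All bins of the stretch had a common state in 25 siCont morula cells out of 44 and in 31 siRif1 cells out of 43, and the stretch was wholly unreplicated in 5 siCont cells and 18 siRif1 cells.

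**Figure D2:**
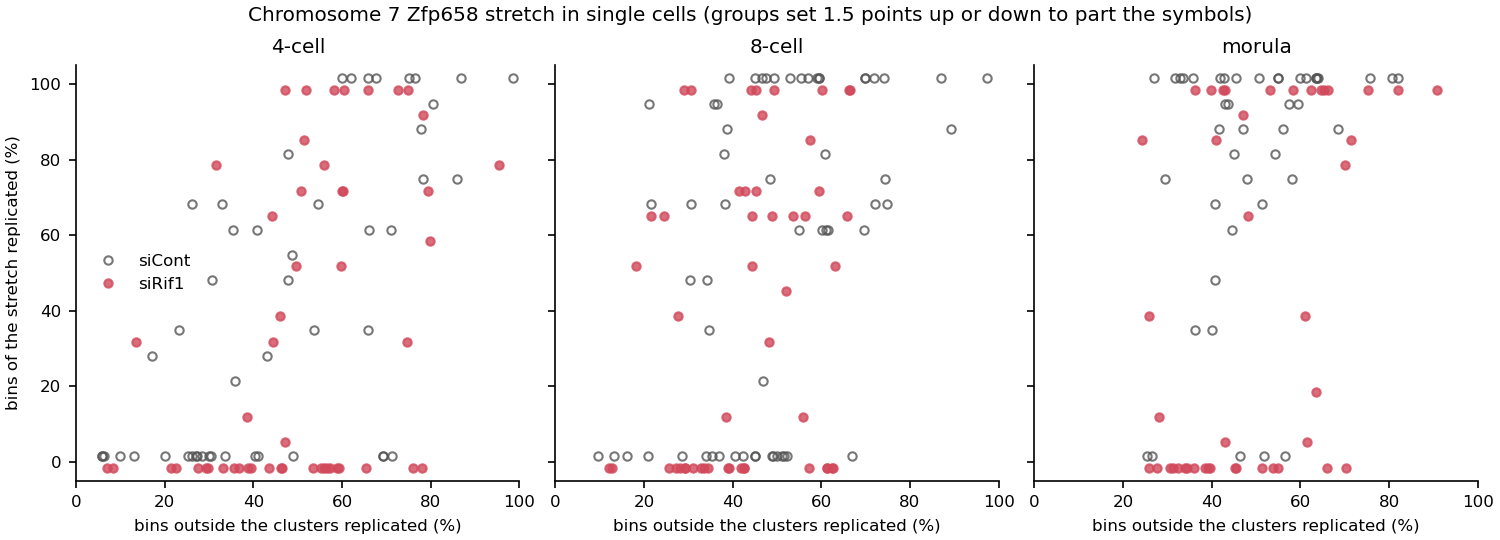
Percent of the bins of the chromosome 7 Zfp658 stretch that were replicated against the percent of bins outside the clusters that were replicated, 1 symbol per cell, for siCont (open) and siRif1 (filled) cells at the 3 stages. At the morula stage many siRif1 cells lie along the bottom, whereas 36 of 44 siCont cells lie above 50%.

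Most other stretches were later in siRif1 morulae as well, whether early or not in siCont morulae. The Zfp369 stretch had a share of 65.5% in siCont and 47.8% in siRif1 cells, a mean shift of -18.3 points with all 6 bins later, where bins of its timing class averaged 0.932. The Vps13d stretch of chromosome 4 had 59.3 and 43.9%, a mean shift of -16.0 with all 12 bins later (class mean -2.87). The Ppp2r1a to Zfp229 section, average in siCont morulae, had 49.3 and 40.3%, a mean shift of -9.66 with all 17 bins later (class mean 7.15). Its lowest values were at Zfp53 and Zfp948, where 24 of 44 siCont but 18 of 45 siRif1 cells were replicated (-15.1 points). The Zfp982 stretch had a mean shift of -7.03 with both bins later (class mean 9.11). The Vmn2r58 stretch, late in both groups with 14.3 and 12.9%, had -2.00 with 16 of 20 bins later (class mean 11.2) and -11.4 on percentile ranks. In cells, the counts were 30 of 44 and 22 of 45 for the Zfp369 stretch, 28 of 44 and 19 of 45 for the Vps13d stretch, and 23 of 44 and 19 of 45 for the Ppp2r1a to Zfp229 section, and the exact intervals of each pair overlapped. The array of chromosome 13 from Zfp712 to Zfp273 was split, with shifts of -13.1 to -3.77 points in its first 9 bins and of -3.67 to 0.878 in the next 9 and of -8.21 and -12.7 in the last 2, for a mean of -5.74. Zfp759, among the first, was at -13.0, and Zfp459 and Zfp874b, further in, at 0.878 each.

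Of the 3 late sections of chromosome 17, 2 had a positive mean shift at the morula stage. The receptor genes Vmn2r104 to Vmn1r232 had a share of 15.3% in siCont and 32.6% in siRif1 cells, a mean shift of 16.7 points with all 19 bins earlier (range 1.03 to 25.98). At Fpr-rs7, a formyl peptide receptor gene chosen after its values were seen, 3 of 44 siCont and 15 of 45 siRif1 cells were replicated. The Zfp820 to Zfp946 section had 8.77 and 21.3%, a mean shift of 11.9 with all 14 bins earlier. Bins of the same timing class averaged 11.7 in both cases, so the section from Zfp820 to Zfp946 lay near its class, and its percentile rank was higher by only 0.0851 in siRif1 cells. The Vmn2r111 to Zfp945 section had 24.7% in siCont and 25% in siRif1 cells, a mean shift of -0.302 with 3 of 8 bins later (class mean 11.03), and -13.3 on percentile ranks. Zfp942 and Zfp943, neighbouring genes between Zfp820 and Zfp946, were replicated in 4 and 3 of 44 siCont cells and in 12 and 11 of 45 siRif1 cells. Over the whole chromosome 17 cluster the mean shift was 5.49 points, but on percentile ranks it was -3.82, so it has no direction that both scales share.

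**Figure D3:**
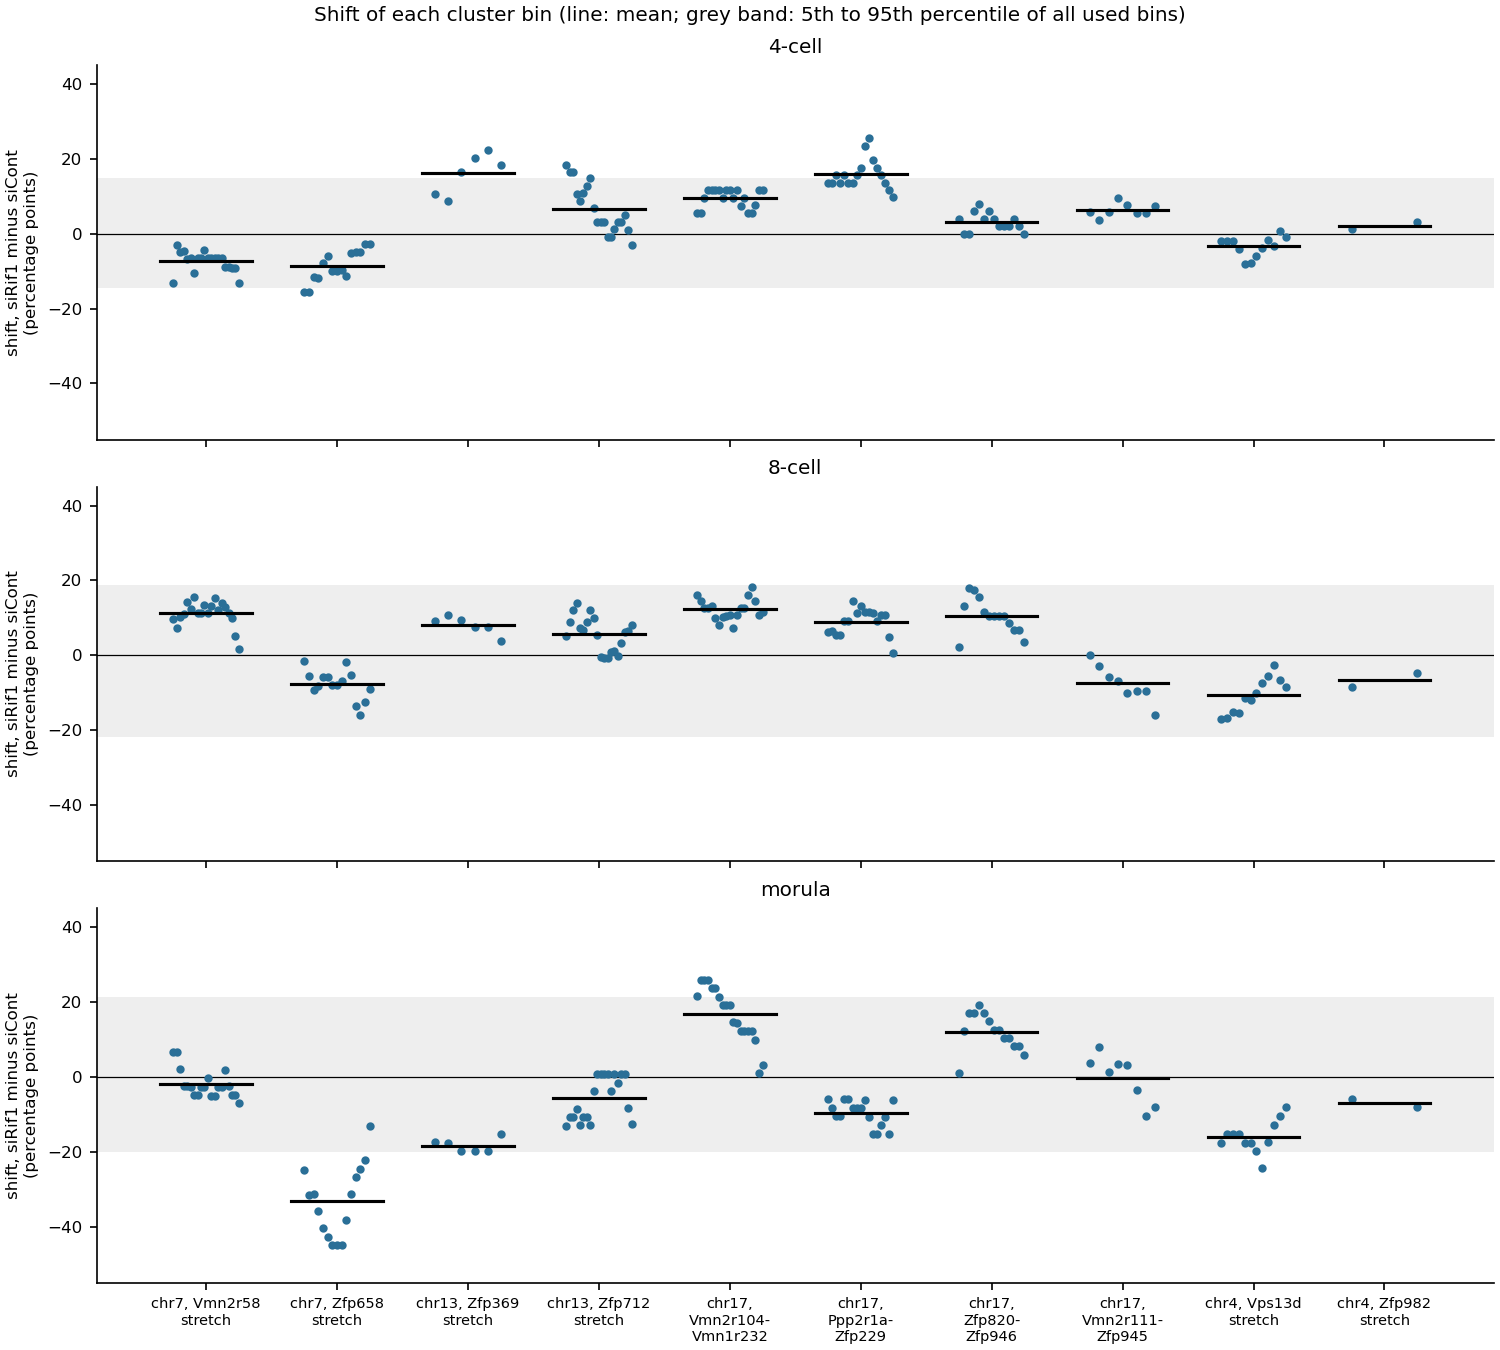
Shift (siRif1 minus siCont, percentage points) of each cluster bin at the 3 stages, in genome order within each stretch or chromosome 17 section, with the mean as a line and the 5th to 95th percentile of all used bins as a grey band. At the morula stage all 15 bins of the Zfp658 stretch lie between -45.0 and -13.1, while all 19 bins of the Vmn2r104 to Vmn1r232 section lie above 0.

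Inside chromosome 17 the contrast between neighbouring sections could be read from single cells. Between the bins of Zfp229 and Zfp947, 22 of 44 siCont morula cells had replicated Zfp229 only and 0 had replicated Zfp947 only. In siRif1 morula cells the counts were 11 and 1 of 45. Between Vmn2r104 and Zfp229, 23 of 44 siCont cells had replicated Zfp229 only and 1 Vmn2r104 only, against 8 and 2 of 45 siRif1 cells. On chromosome 7, 36 of 44 siCont cells had replicated Zfp658 but not Vmn2r59, and 1 the reverse, against 16 and 1 of 43 siRif1 cells. The order of the genes was thus the same in both groups, Zfp229 ahead of its neighbours and Zfp658 ahead of Vmn2r59, while fewer siRif1 cells were caught between the steps. These gene pairs were chosen after the profiles had been seen.

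At the 8-cell stage the clusters were on balance earlier in siRif1 cells. Of the 133 bins, 40 were later (47.9% of all used bins were), 12 were later by at least 10 points (21.1% of all) and 52 were earlier by at least 10 points (22% of all). None passed 30 points in either direction (1.06% of all were later and 0.224% earlier). The median shift was 7.51 points, beside 0.569 over all used bins. No siRif1 8-cell cell had replicated more than 66.5% of the bins outside the clusters, against 97.5% for the most advanced siCont cell. The part of this difference in the shifts was not tested. With 45 pairs of cells matched in S phase progress, 48 cluster bins were later, 16 of them by at least 10 points. In the same matched cells, 44 were earlier by at least 10 points. With all cells, the mean shift of the cluster bins was 4.49 points, and 2.62 on percentile ranks. Bins of the same timing class averaged 5.48 points, so the cluster mean did not exceed that of its class.

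Earlier bins lay in late and in average stretches. The Vmn2r58 stretch had a share of 14.9% in siCont and 19.9% in siRif1 cells, a mean shift of 11.2 points with all 20 bins earlier, where its class averaged 10.4, but only 1.19 on percentile ranks. The receptor section of chromosome 17 and the section from Zfp820 to Zfp946 had mean shifts of 12.3 and 10.4 points with every bin earlier, and class means of 10.6 for both. On percentile ranks these were 11.8 and 0.638. The Zfp369 stretch, at 56.1% in siCont cells, and the Ppp2r1a to Zfp229 section, at 44.2%, had mean shifts of 8.07 and 8.91 with all 6 and all 17 bins earlier (class means -0.745 and 5.59). At Zfp942, 5 of 60 siCont and 10 of 50 siRif1 cells were replicated, a shift of 17.8 points. On chromosome 13, Zfp708 and Zfp712 had shifts of 13.8 and 12.2 points, with 29 and 30 of 60 siCont cells and 28 and 28 of 50 siRif1 cells replicated.

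Most of the bins that were later at this stage lay in the Zfp658 stretch, on chromosome 4 and at the end of chromosome 17. The Zfp658 stretch had 54.9% in siCont and 40.9% in siRif1 cells, a mean shift of -7.80 points with all 15 bins later (class mean -5.01). The Vps13d and Zfp982 stretches of chromosome 4 had mean shifts of -10.7 and -6.65, with 12 of 12 and 2 of 2 bins later and class means of -2.17 and 5.59. The Vmn2r111 to Zfp945 section had 25.2 and 11.5%, a mean shift of -7.53 with 7 of 8 bins later, although its class averaged 8.73. Zfp945, the last measured zinc finger gene of chromosome 17, had been copied in 24 of 60 siCont cells and in 9 of 50 siRif1 cells, a shift of -15.8. For chromosome 7 as a whole the mean shift was 3.04 points, but -3.90 on percentile ranks, its stretches having opposite signs.

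At the 4-cell stage most bins of chromosomes 13 and 17, with zinc finger or receptor genes, were replicated in more siRif1 cells. Of the 133 bins, 52 were later (50.2% of all used bins were), 8 were later by at least 10 points (12.9% of all) and 37 were earlier by at least 10 points (13.8% of all). None passed 30 points in either direction (0.0435% of all were later and 0.0196% earlier). The median shift was 3.68 points, beside -0.0336 over all used bins. The mean shift was 3.46, and bins of the same timing classes averaged 0.153.

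The Ppp2r1a to Zfp229 section had a share of 24.5% in siCont and 44.2% in siRif1 cells, a mean shift of 15.8 points with all 17 bins earlier (class mean 0.862). Its highest values were at Zfp51, with 12 of 49 siCont and 27 of 50 siRif1 cells replicated (25.6 points), and at Zfp54, with 13 of 49 and 27 of 50 (23.6 points). The Zfp369 stretch had 29.9 and 50%, a mean shift of 16.2 with all 6 bins earlier (class mean 0.680). By cells, 13 of 49 siCont and 22 of 50 siRif1 cells had replicated the Ppp2r1a to Zfp229 section, and 15 of 49 (30.6%, exact 95% interval 18.3 to 45.4) and 26 of 51 (50.98%, 36.6 to 65.2) the Zfp369 stretch. The intervals of these pairs overlap, so counting error alone leaves the size of the differences uncertain. The receptor section of chromosome 17 had 24.9 and 38.3%, a mean shift of 9.48 with all 19 bins earlier, and the Vmn2r111 to Zfp945 section one of 6.37 with all 8 earlier. The Zfp820 to Zfp946 section had 6.85 and 13.9%, a mean shift of 3.09 with 3 of 14 bins later. The array from Zfp712 to Zfp273 had 17 of 20 bins earlier and a mean shift of 6.72, highest at Zfp712 (16.5) and below 0 at Zfp87 and Zfp729b (-0.794 each, but 0.186 for Zfp729b as the mean over the gene body).

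On chromosome 7 the 4-cell shifts had the other sign. All 20 bins of the Vmn2r58 stretch and all 15 of the Zfp658 stretch were later, with mean shifts of -7.42 and -8.63 points and class means of -0.552 and -0.109. For Zfp715, 23 of 49 siCont cells and 18 of 51 siRif1 cells were replicated (-15.6 points) and for Zfp141 18 of 49 and 14 of 51 (-13.2 points). Zfp788, at the other end of the Vmn2r58 stretch, had a shift of -4.88. On chromosome 4 the Vps13d stretch had a mean shift of -3.41, which was 4.63 when only cells matched in S phase progress were used, and the Zfp982 stretch had one of 2.19, which was -0.317 when only cells between 20 and 80% replicated were used. Zfp990 and Zfp982, the only measured zinc finger genes there, had shifts of 0.847 and 3.21 at this stage, -6.49 and -4.82 at the 8-cell stage and -10.4 and -8.16 at the morula stage.

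**Figure D4:**
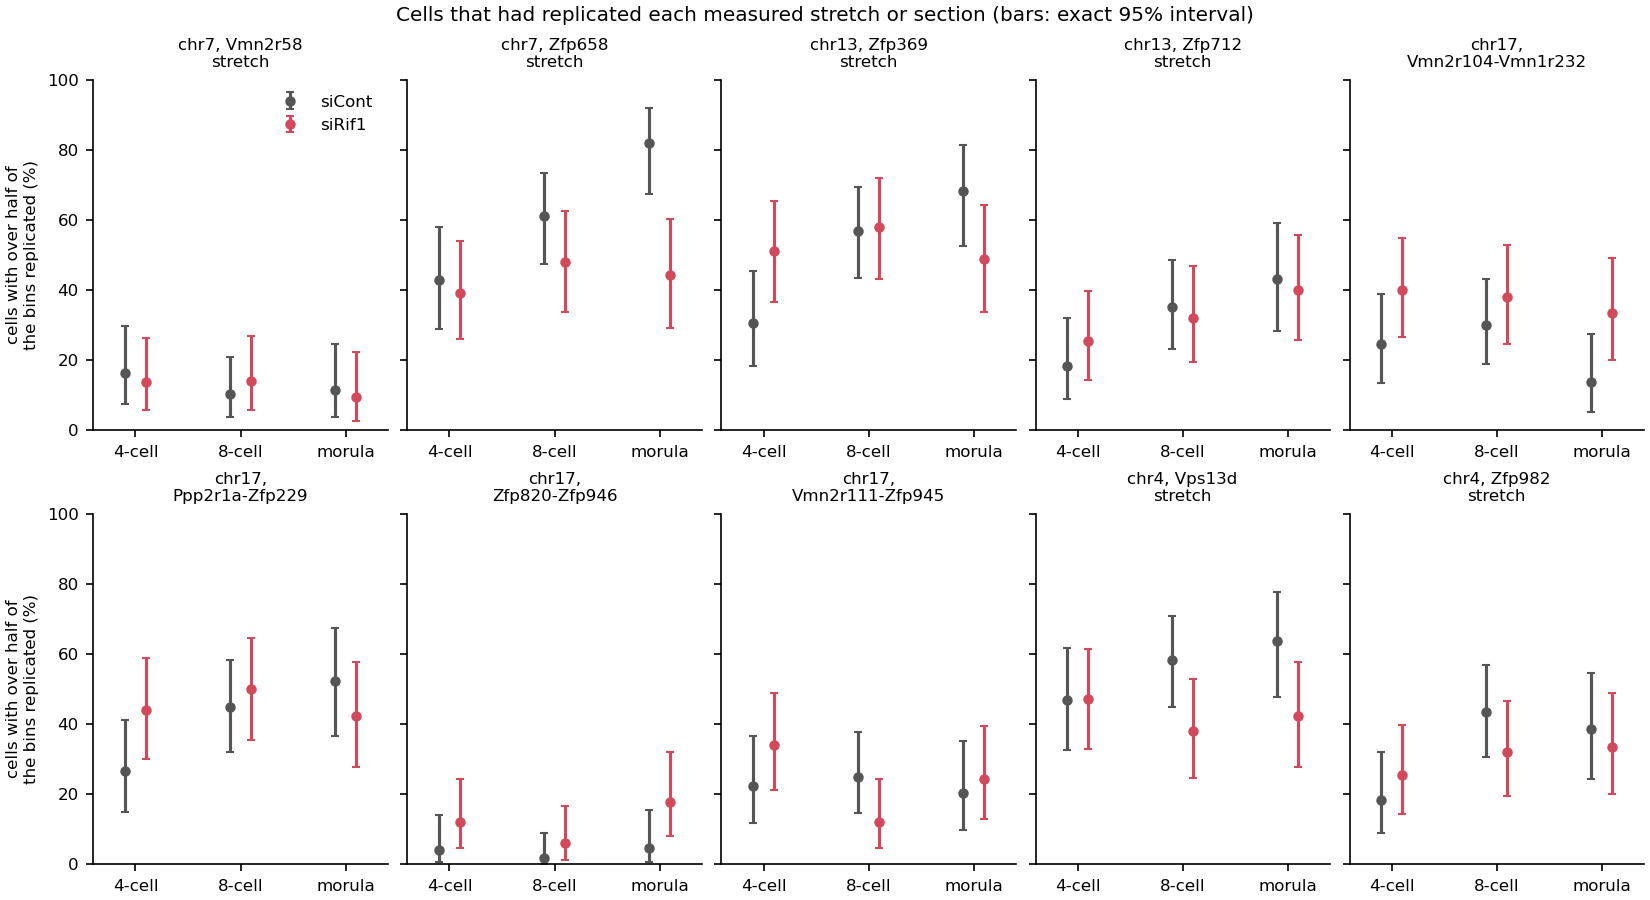
Percent of cells that had replicated more than 50% of the measured bins of each stretch or chromosome 17 section, for siCont (grey) and siRif1 (red) cells at the 3 stages; bars are exact 95% Clopper-Pearson intervals of counting error. The intervals part only for the Zfp658 stretch at the morula stage, with 81.8% of siCont and 44.2% of siRif1 cells.

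Sorted by gene content over all clusters, the zinc finger bins lay between the receptor bins and the bins of other genes at each of the 3 stages. The 27 receptor bins had median shifts of 9.60, 11.4 and 12.2 points at the 4-cell, 8-cell and morula stages, with 4, 2 and 7 of them later. The 42 zinc finger bins had medians of 3.50, 6.68 and -6.53, with 9, 10 and 25 later. The 27 bins of other genes had -2.99, -5.49 and -17.6, with 19, 17 and 25 later. Most receptor bins (23 of 27) lie on chromosome 17 and most bins of other genes (14 of 27) on chromosome 7, and the pooled order did not hold within each chromosome. On chromosome 13 at the 4-cell stage, the 7 bins of other genes had a median of 10.8 with 1 later, above the 3.13 of the 17 zinc finger bins. Of these 7 bins, 4 lie in the array from Zfp712 to Zfp273, where Rsl1 and Rslcan18 count as other genes. The 2 classes may therefore both hold KRAB zinc finger genes there. On chromosome 7 at that stage, the 5 zinc finger bins had -9.84, below the 4 receptor bins (-6.48) and the 14 bins of other genes (-6.86). On chromosome 17, the 18 zinc finger bins had 6.74, 10.51 and -2.63 at the 3 stages and the 23 receptor bins 11.6, 11.2 and 12.2. The 37 bins with no gene midpoint had -0.954, 9.51 and -4.76 over all clusters.

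**Figure D5:**
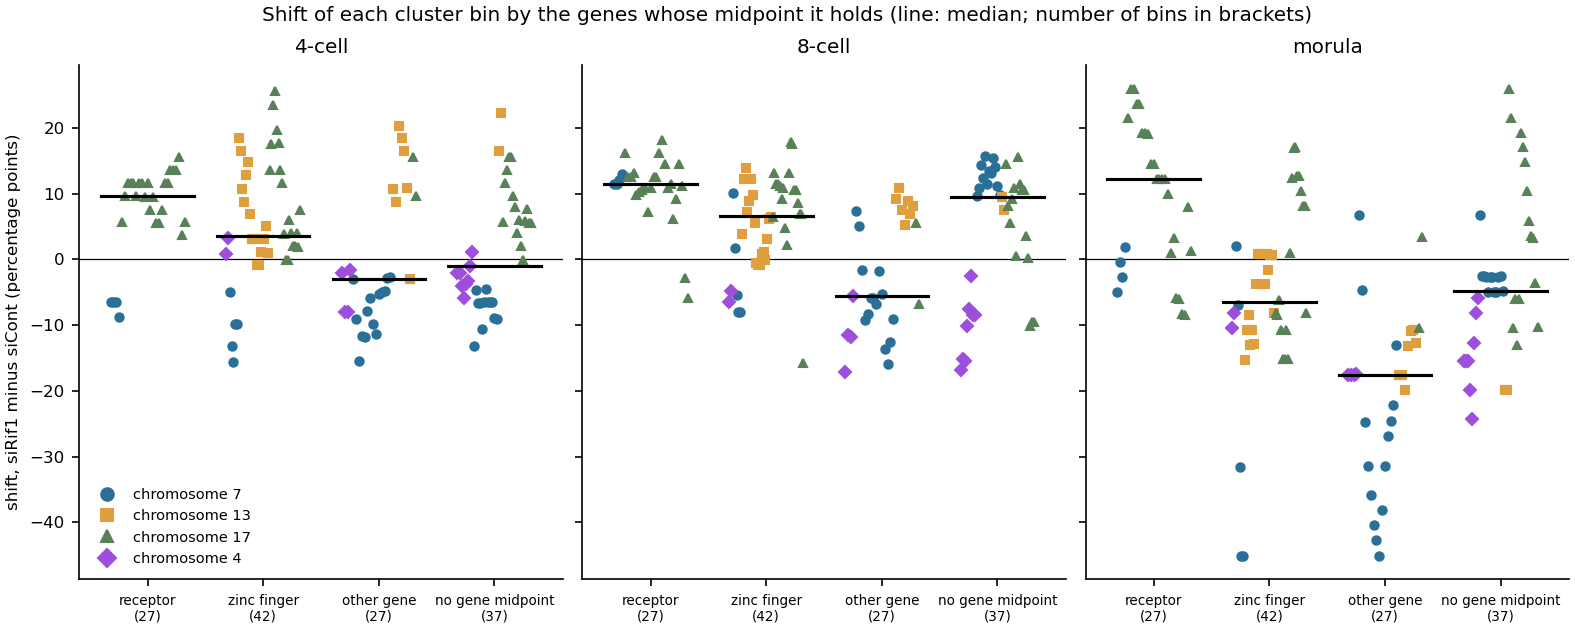
Shift (siRif1 minus siCont, percentage points) of each of the 133 cluster bins by the genes whose midpoint it holds, with the chromosome as the symbol and the median as a line, at the 3 stages. The receptor medians are 9.60, 11.4 and 12.2 and those of other genes -2.99, -5.49 and -17.6, while zinc finger bins spread from -45.0 to 17.0 at the morula stage.

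Zinc finger genes outside the clusters had other values. There, 327 genes named in the same way lay in 280 bins, with median control shares of 51.6, 63.02 and 70.5% at the 3 stages, against 22.4, 38.3 and 42.05% for the 42 bins inside. Their median shifts were -3.68, -8.65 and -8.77 points, with 171, 222 and 228 of the 280 bins later (50.2, 47.9 and 50.9% of all used bins were). The cluster genes were thus a late subset of the zinc finger genes. At the 4-cell and 8-cell stages the median shift of their bins had the opposite sign. No timing-class mean is given for either set, so the part of their unlike timing in this difference was not tested. For all 133 cluster bins, bins of the same timing classes averaged 0.153 points at the 4-cell and 5.48 at the 8-cell stage. The mean shifts of the cluster bins were 3.46 and 4.49 points.

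The genes of the KRAB corepressor pathway lie elsewhere in the genome and all 17 of the list were measured. At the 4-cell, 8-cell and morula stages 12, 11 and 15 of them were later in siRif1 cells (50.2, 47.9 and 50.9% of all used bins were), and 4, 10 and 6 were later by at least 10 points (12.9, 21.1 and 24.9% of all), with medians of -4.92, -12.8 and -6.85. The 17 genes had median control shares of 59.2, 71.7 and 79.1%, and no timing-class mean is given for them. Among the bins of zinc finger genes outside the clusters, 61.1, 79.3 and 81.4% were later, so later shifts were not particular to the corepressor genes. Trim28, the scaffold, had control shares of 32.7, 50.8 and 59.1% and shifts of 4.61, -8.67 and -6.19. Setdb1, the methyltransferase, had 75.5, 76.7 and 79.5% and shifts of -4.92, -16.5 and -2.35. Hdac1, a histone deacetylase gene, had shifts of -22.6, -25.8 and -6.70, and Uhrf1, which guides the maintenance DNA methyltransferase Dnmt1, -19.1, -27.2 and -6.85. The lowest morula values were those of Smarcad1, a chromatin remodeller (-29.9), and Morc3, an ATPase of silent chromatin (-26.1). Hdac2 had 9.93, 6.49 and 11.5 and was earlier at each of the 3 stages. Rif1 itself had shifts of 11.6, -4.49 and -6.45.

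The flanks of 1 Mb were set beside the clusters. Before the chromosome 7 interval, 10 used bins had mean shifts of -4.32, 8.44 and 22.9 points at the 3 stages, and the 20 after it -11.1, -18.2 and -8.20, so the delay of the Zfp658 stretch at the morula stage was larger than that of the DNA behind it. After the chromosome 17 interval, 20 bins had 1.40, -29.8 and -13.0, unlike the cluster's means of 9.37, 8.09 and 5.49. Around chromosome 13, the bins before had 4.30, -0.853 and -6.17 and the 9 after had 3.17, 0.551 and -9.42. Around chromosome 4, the 13 bins before had 5.60, -12.9 and -15.0, near the means of -3.41, -10.7 and -16.0 of the Vps13d stretch at the later stages. The 20 bins after had -9.35, -17.7 and -9.17, beside means of 2.19, -6.65 and -7.03 in the Zfp982 stretch. For the unmeasured cluster of chromosome 2 only the flanks can be given, with 1.88, -9.29 and -6.68 before it and -6.55, 2.61 and 0.398 after it.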

How the data were processed

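The authors deposited 1 table per group with 1 line per 50-kb bin of the 19 autosomes and 1 column per cell, holding 0, 1 or NA. The submitters' processing notes name the build GRCm38 and the tools R 4.2.3, bedtools, Bowtie2 2.5.1, Picard and SAMtools without their roles. The step from reads to states is not given in the sources. Of 416 labelled cells, 299 had a column. A state of 1 was read as replicated because bins with a gene midpoint held more 1 states than gene-free bins in each of the 6 groups. Read depth per cell is unknown here. Each cluster bin was measured in at least 43 cells per group.

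Shares, centred shares, shifts and exact 95% Clopper-Pearson intervals were computed with Python 3.11.15, numpy 2.4.6, pandas 2.3.3 and scipy 1.17.1. Only the recovery of mean shifts was tested, on simulated states with independent bins and middling shares, unlike the runs and extreme shares of the real data. For timing classes, bins were ranked on their centred siCont share averaged over the 2 stages not being compared, and split into 5 classes of like size. Genes were placed by the midpoint in a RefSeq table of GRCm38.p6, and promoters were taken at the first listed start. For each cluster and stage, the rule for named genes took the 2 zinc finger genes with the lowest and the 2 with the highest shift, and added Rif1 and the 17 corepressor genes. Alternatives were another minimum of cells, subsets of cells, ranks, trimmed intervals, shares of cells and gene bodies. The members and lists were chosen with earlier results of these data known.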

Additional observations from a re-analysis of the deposited data

Results flagged for a closer look

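In 4 places every bin was shifted one way at one stage and the opposite way at another, and in none of them was the difference between stages tested. The chromosome 7 Vmn2r58 stretch had a mean shift of -7.42 points at the 4-cell stage and 11.2 at the 8-cell stage. The latter was near its class mean of 10.4 and was 1.19 on percentile ranks. The chromosome 13 Zfp369 stretch had 16.2 at the 4-cell and 8.07 at the 8-cell stage, but -18.3 at the morula stage. The chromosome 17 section from Ppp2r1a to Zfp229 had 15.8, 8.91 and -9.66 at the same stages, and this section was drawn after the profiles had been seen. The chromosome 4 Zfp982 stretch, of 2 bins, had 2.19, -6.65 and -7.03. Its 4-cell value was -0.317 when only cells between 20 and 80% replicated were used, so its reversal was not kept there.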

How the results depend on the processing

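Each mean shift of the 4 measured clusters was recomputed under 6 alternatives, and those of their 6 separate stretches under 5, and none of those of at least 10 points changed sign. Smaller ones did: chromosome 7 at the 8-cell stage and chromosome 17 at the morula stage had -3.90 and -3.82 on percentile ranks, chromosome 4 at the 4-cell stage had 5.62 and its Vps13d stretch 4.63 with cells matched in S phase progress, and its Zfp982 stretch had -0.317 with cells between 20 and 80% replicated. That selection also gave 20 bins later by at least 10 points at the 8-cell stage, in place of 12, and 1 bin earlier by at least 30 points at the 4-cell stage, in place of 0. The chromosome 7 morula shift was -0.0580 when cells with more than 50% of all its bins replicated were counted, in place of -15.4, because the Zfp658 stretch holds only 15 of the 35 bins, while the Zfp658 stretch then had -38.2. In percentage points the morula shift of the Zfp658 stretch ranged from -32.0 with matched cells to this -38.2. On percentile ranks, which are another scale, it was -44.4. A minimum of 20 cells per bin could drop no cluster bin, since each had at least 43 cells per group. That alternative, counted among those above, left the cluster shifts unchanged and says nothing about their stability. The mean shifts of the 4 sections of chromosome 17 were recomputed only on percentile ranks. No paired analysis was possible because the numbers in the labels only name cells. With 1 sample per group, the spread between embryos is unknown, and at 43 to 60 cells per group the exact intervals of siCont and siRif1 overlapped for every stretch and section at every stage, except the Zfp658 stretch at the morula stage.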
